A study of Mus musculus with 12 samples.

Results

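The signals of 6 genes for adhesion molecules of the mesoderm were followed through sorted cells of E7.5 mouse embryos. The genes were chosen by their Ensembl IDs and are Vcam1 (ENSMUSG00000027962), Fn1 (ENSMUSG00000026193), Itga4 (ENSMUSG00000027009), Itga5 (ENSMUSG00000000555), Cdh2 (ENSMUSG00000024304) and Cdh11 (ENSMUSG00000031673). All 6 IDs were found among the 22400 gene rows. The deposited tables hold IDs only, so the gene names are those given with the list of IDs. The embryos (stage E7.5) carried foxf1::venus, a knock-in that puts the fluorescent protein VENUS under the control of the Foxf1 locus, on a C57BL/6 background shared by all groups. The sort used VENUS and FLK1, the VEGF receptor encoded by Kdr, and 50 cells were taken for each sample. The 3 populations are Flk-pos Foxf1-neg (FLK1+ FOXF1-), Flk-pos Foxf1-pos (FLK1+ FOXF1+, called double-positive here) and Flk-neg Foxf1-pos (FLK1- FOXF1+). Each has 2 arrays, from sort 1 and sort 2. The labels do not say how many embryos a sort held or how many copies of the knock-in they carried. The signals of Foxf1 and Kdr were not checked against the labels, since no table used here pairs those names with IDs.

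VCAM1 is a surface protein of the immunoglobulin family that binds integrins with the alpha4 subunit. In the mouse this pair holds the allantois, the mesodermal outgrowth that becomes the umbilical cord, to the chorion, and embryos that lack either protein often fail at this fusion. Fibronectin, the product of Fn1, is the matrix protein on which early mesoderm migrates, and integrins with the alpha5 or alpha4 subunit are its receptors. Cadherins join cells of one kind to each other, and N-cadherin (Cdh2) and cadherin-11 (Cdh11) are the forms typical of mesenchyme.

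Values are log2 signals, compared for each gene between arrays and not between genes. None of the 6 genes passed the test between any pair of populations. The pattern nearest to the threshold was that of Cdh11, which had its lowest signals in both double-positive arrays. Vcam1 had its lowest signals in both FLK1+ FOXF1- arrays. Of the 3 exon-level probe sets linked to Vcam1 below, only 5606448 showed this order. Most of these signals were dim: the mean over the 6 arrays was 5.08 for Cdh2, 5.10 for Vcam1, 5.28 for Itga4, 5.37 for Cdh11 and 5.72 for Itga5, under the median of 6.03 over all rows, and only Fn1, at 6.55, was above it. In bulk samples such as these, fewer cells that express a gene and less RNA per cell cannot be told apart.

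**Figure D1:**
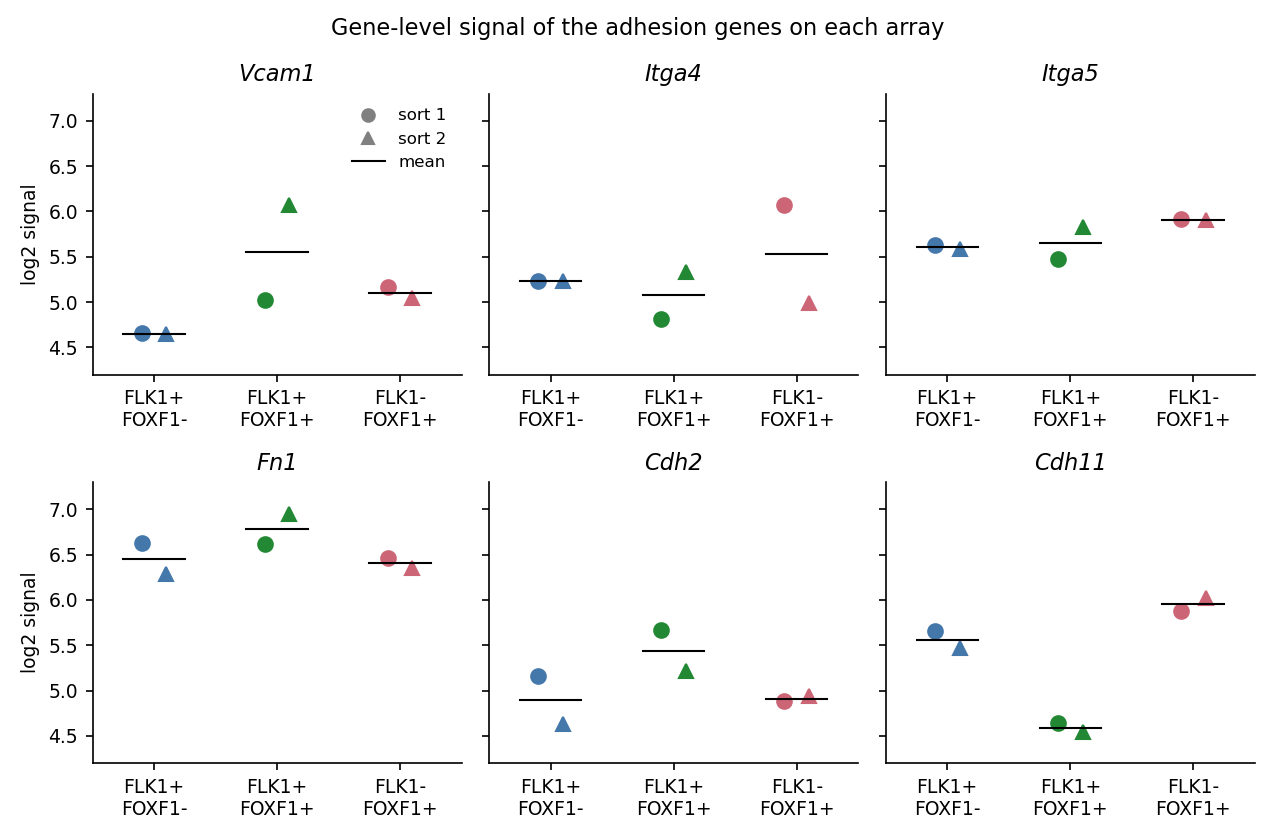
Log2 signal of each gene (vertical axis) on the 6 arrays, by population (horizontal axis). Circles are sort 1, triangles sort 2 and lines the mean of both. Cdh11 sits at 4.54 and 4.64 in the double-positive cells and at 5.47 or more on the other 4 arrays, while a single array stands high for Vcam1 (6.08) and for Itga4 (6.07).

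Vcam1, the counter-receptor for alpha4 integrins, had log2 signals of 4.65 and 4.65 in FLK1+ FOXF1- cells (sort 1 and sort 2), 5.02 and 6.08 in double-positive cells, and 5.17 and 5.04 in FLK1- FOXF1+ cells. All 4 arrays of the FOXF1-positive populations lay above both FLK1+ FOXF1- arrays, and the double-positive cells overlapped with the FLK1- FOXF1+ cells. The order of the means was 5.55 ± 0.74 (SD, n = 2) in double-positive, 5.11 ± 0.09 in FLK1- FOXF1+ and 4.65 ± 0.0025 in FLK1+ FOXF1- cells. The 2 double-positive arrays differed by 1.05 log2 units, and 96.3% of all rows had a smaller SD in that population. Against FLK1+ FOXF1- cells, Vcam1 was at a difference of 0.90 ± 0.34 (SE) log2 units in double-positive cells, with a 95% interval of 0.10 to 1.69, an unadjusted p of 0.0321 and an adjusted p of 0.9999 in limma. That difference was 0.37 without double-positive sort 2 and 1.42 without double-positive sort 1. FLK1- FOXF1+ cells were at 0.45 ± 0.34 log2 units against FLK1+ FOXF1- cells (adjusted p = 0.901). Double-positive cells were at 0.44 ± 0.34 against FLK1- FOXF1+ cells (limma adjusted p = 0.9993). The 95% intervals of both differences between neighbours in the order included 0.

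Fn1, the matrix ligand, gave 6.63 and 6.28 in FLK1+ FOXF1- cells, 6.62 and 6.95 in double-positive cells, and 6.47 and 6.35 in FLK1- FOXF1+ cells. The double-positive arrays were both above the FLK1- FOXF1+ arrays but overlapped with the FLK1+ FOXF1- arrays. The means were 6.79 ± 0.23, 6.45 ± 0.25 and 6.41 ± 0.08 (SD, n = 2) in double-positive, FLK1+ FOXF1- and FLK1- FOXF1+ cells. The widest of the 3 differences, double-positive minus FLK1- FOXF1+, was 0.38 ± 0.23 (SE) log2 units, with a 95% interval of -0.17 to 0.93 (limma adjusted p = 0.981). It was 0.54 without double-positive sort 1 and 0.21 without double-positive sort 2. The range of Fn1 over the 6 arrays, 0.67 log2 units, was larger than that of 48.6% of rows, near the middle of the table.

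Itga4, the alpha4 subunit that binds both VCAM1 and fibronectin, was measured at 5.23 and 5.23 in FLK1+ FOXF1- cells, 4.82 and 5.33 in double-positive cells, and 6.07 and 4.99 in FLK1- FOXF1+ cells. The 3 populations overlapped, and FLK1- FOXF1+ sort 1 was the only array above 5.33. The sorts of the FLK1- FOXF1+ cells were 1.09 log2 units apart, a spread above that of 96.1% of rows in that population. FLK1- FOXF1+ cells were at a difference of 0.30 ± 0.37 (SE) log2 units from FLK1+ FOXF1- cells, with a 95% interval of -0.57 to 1.17 (limma adjusted p = 0.964). Without FLK1- FOXF1+ sort 1 the difference was -0.24, so 1 array decided its direction.

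Itga5, the alpha5 subunit of the main fibronectin receptor, varied least. Its signals were 5.63 and 5.58 in FLK1+ FOXF1- cells, 5.48 and 5.82 in double-positive cells, and 5.91 and 5.90 in FLK1- FOXF1+ cells. Both FLK1- FOXF1+ arrays were above the other 4 arrays. The range over all arrays was 0.43 log2 units, and 18.8% of rows had a smaller one. FLK1- FOXF1+ cells were at 0.30 ± 0.22 (SE) log2 units against FLK1+ FOXF1- cells, with a 95% interval of -0.20 to 0.81 (limma adjusted p = 0.884). Double-positive cells were at -0.26 ± 0.22 against FLK1- FOXF1+ cells (adjusted p = 0.9993), a difference that was -0.084 without double-positive sort 1 and -0.43 without double-positive sort 2.

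Cdh2, which encodes N-cadherin, had signals of 5.16 and 4.63 in FLK1+ FOXF1- cells, 5.66 and 5.22 in double-positive cells, and 4.88 and 4.94 in FLK1- FOXF1+ cells. Both double-positive arrays were above the other 4, although double-positive sort 2 (5.22) was close to FLK1+ FOXF1- sort 1 (5.16). The probe sets behind the Cdh2 gene signal differed between arrays, and neither of those linked to it showed this separation, as described below. The double-positive mean of 5.44 ± 0.32 (SD, n = 2) was 0.54 ± 0.27 (SE) log2 units above FLK1+ FOXF1- cells, with a 95% interval of -0.08 to 1.17 and an adjusted p of 0.9999 in limma. Against FLK1- FOXF1+ cells the difference was 0.53 ± 0.27, with an interval of -0.10 to 1.15 (adjusted p = 0.936). When 1 array was left out, the former difference ran from 0.28 (without FLK1+ FOXF1- sort 2) to 0.81 (without its sort 1), and the latter from 0.30 (without double-positive sort 1) to 0.75 (without its sort 2). The other 2 populations had close means, 4.90 ± 0.37 and 4.91 ± 0.04 (SD, n = 2), with an interval of -0.61 to 0.64 for their difference.

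Cdh11, the mesenchymal cadherin-11, was at 5.65 and 5.47 in FLK1+ FOXF1- cells, 4.64 and 4.54 in double-positive cells, and 5.88 and 6.02 in FLK1- FOXF1+ cells. No arrays of different populations overlapped, and the double-positive arrays were the lowest of the 6. On these, only 11.5% (sort 1) and 8.69% (sort 2) of all rows were dimmer than Cdh11. Whether signals this dim lay above background was not tested, which limits the fold sizes below. The means were 5.95 ± 0.10 (SD, n = 2), 5.56 ± 0.13 and 4.59 ± 0.07 in FLK1- FOXF1+, FLK1+ FOXF1- and double-positive cells. Against FLK1- FOXF1+ cells, double-positive cells were at -1.36 ± 0.21 (SE) log2 units, a 2.57-fold lower signal, with a 95% interval of -1.85 to -0.88. Its unadjusted p of 0.000252 ranked 89 among 22400 rows and gave an adjusted p of 0.0633 in limma, which missed the threshold of 0.05. Against FLK1+ FOXF1- cells the difference was -0.97 ± 0.21, or 1.96-fold lower, with an interval of -1.45 to -0.49 (unadjusted p = 0.00195, rank 90, adjusted p = 0.468). FLK1- FOXF1+ cells were at 0.39 ± 0.21 against FLK1+ FOXF1- cells (adjusted p = 0.785). The double-positive arrays enter both of the first 2 differences, so these are not independent of each other. The probe sets behind the Cdh11 gene signal also differed between arrays, as described below.

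**Figure D2:**
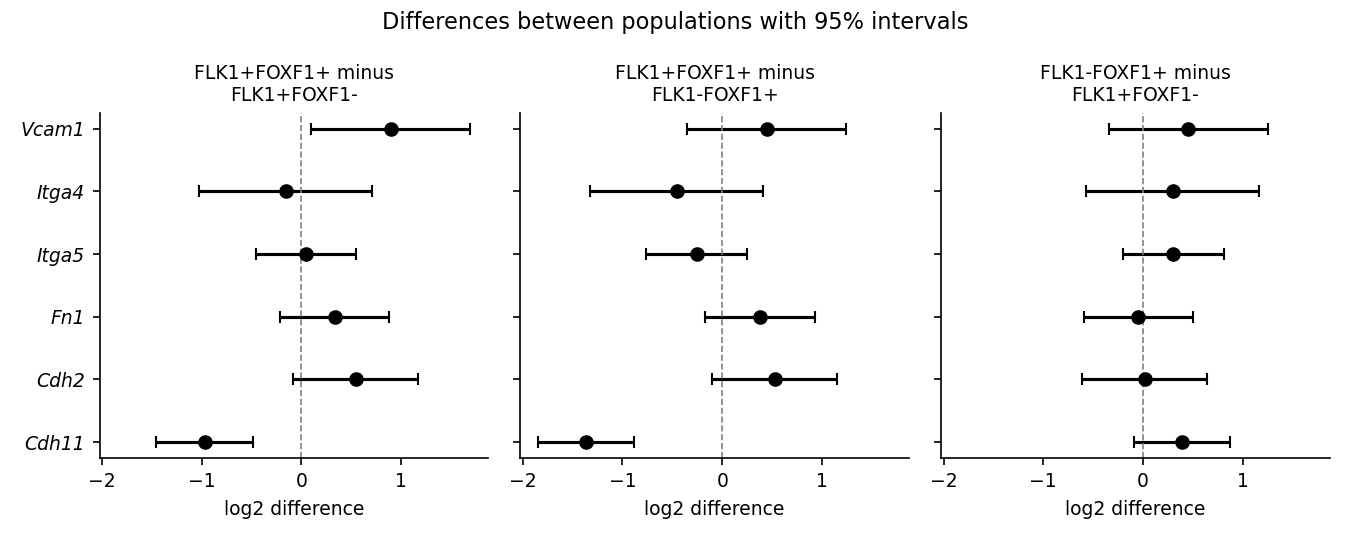
Log2 differences between populations (horizontal axis) for each gene, with bars for the 95% interval of the limma fit. The interval excludes 0 for Cdh11 in both comparisons of double-positive cells and for Vcam1 against FLK1+ FOXF1- cells, before any adjustment for the number of rows tested.

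Within FLK1+ cells, the comparison by FOXF1 reporter status called 0 of the 6 genes in limma, against 0% of all rows. At an unadjusted p under 0.05 there were 2 of the 6, Vcam1 and Cdh11, in opposite directions, against 4.67% of all rows. The arrays of the 2 populations did not overlap for 3 genes (Vcam1 and Cdh2 higher and Cdh11 lower in double-positive cells), where 32% of all rows had that property. The median difference was 0.19 log2 units for the 6 genes and -0.002 over all rows.

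Among FOXF1-positive cells, the comparison by FLK1 called 0 of the 6 genes, against 0.286% of all rows. Cdh11 alone had an unadjusted p under 0.05, as did 5.86% of all rows. The arrays did not overlap for 4 genes, with Fn1 and Cdh2 higher and Itga5 and Cdh11 lower in double-positive cells, against 32.4% of all rows. The median difference of the 6 genes was 0.06 log2 units (all rows, -0.007). The smallest difference that any row called in this comparison showed was 1.57 log2 units, more than the 1.36 of Cdh11.

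Between FLK1- FOXF1+ and FLK1+ FOXF1- cells, limma called 0 of the 6 genes, against 0.545% of all rows, and 0 had an unadjusted p under 0.05, against 7.28%. The arrays did not overlap for Vcam1, Itga5 and Cdh11, all higher in FLK1- FOXF1+ cells, where 35.1% of all rows did not overlap. The largest of the 6 differences was the 0.45 log2 units of Vcam1, and the median was 0.30 (all rows, 0.002). The median standard error over all rows was 0.25 log2 units, and that of the 6 genes ran from 0.21 for Cdh11 to 0.37 for Itga4. The 3 comparisons share arrays, and each population enters 2 of them.

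**Figure D3:**
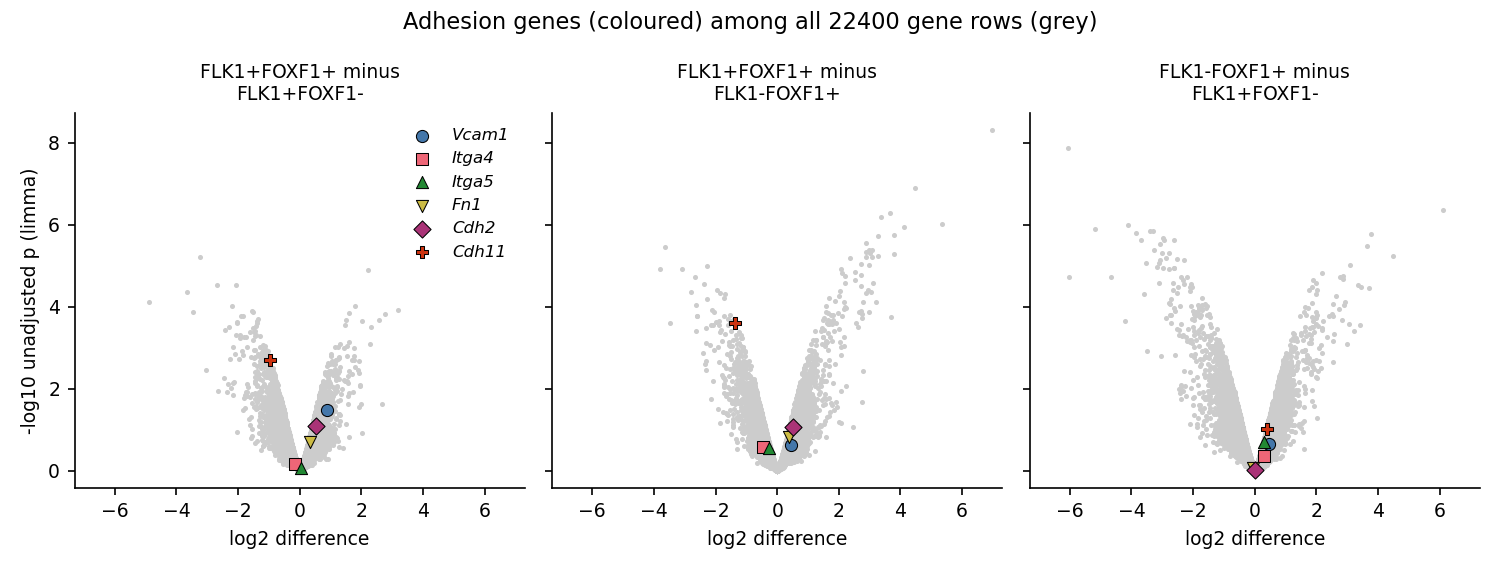
Each gene row by its log2 difference (horizontal axis) and the negative log10 of its unadjusted limma p (vertical axis) in the 3 comparisons, with the adhesion genes as coloured symbols on grey points for all 22400 rows. Cdh11 lies near the edge of the cloud in both comparisons of double-positive cells (ranks 90 and 89 by p), and the other 5 genes lie within it.

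The exon-level table of the same arrays showed what lay beneath these gene signals. Its values were searched for probe sets that equalled a gene's signal on at least 2 arrays, or for pairs of probe sets whose midpoint equalled it on at least 3 arrays (on 2 where the pair shared a probe set already found). This linked 9 probe sets to 4 of the genes, and none to Itga5 or Fn1. The linked probe sets accounted for the signal of Vcam1 on all 6 arrays and for those of Itga4, Cdh2 and Cdh11 on 5 arrays each. For Itga4 it was the same probe set on all 5 arrays. For Vcam1, Cdh2 and Cdh11 the value or midpoint changed its probe sets between arrays. Other probe sets of these genes were not identified here. Both the linking and the tests of single probe sets were chosen with the data in view.

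The 3 probe sets linked to Vcam1 disagreed. Probe set 5175517 was at 5.25 and 4.92 in FLK1+ FOXF1- cells, 5.31 and 9.21 in double-positive cells, and 7.498 and 4.95 in FLK1- FOXF1+ cells. It was thus high on 1 array of each FOXF1-positive population, and these 2 arrays came from sorts of different number. Probe set 5606448 was at 4.06 and 4.38 in FLK1+ FOXF1- cells, 4.73 and 6.88 in double-positive cells, and 4.96 and 5.13 in FLK1- FOXF1+ cells, highest on the same double-positive array. Probe set 5057050 stayed between 5.25 and 5.38 on all arrays. Only in probe set 5606448 were both FLK1+ FOXF1- arrays below all arrays of the FOXF1-positive populations, as they were in the gene signal. The gene signal of 6.08 on double-positive sort 2 lay midway between 5.27 and 6.88, below the 9.21 of probe set 5175517. On both FLK1+ FOXF1- arrays the gene signal was the midpoint of probe sets 5175517 and 5606448. These moved in opposite directions between the sorts, each with an SD of 0.23, so the close gene signals there do not show close probe sets.

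For Itga4, probe set 5264079 equalled the gene signal on 5 arrays. On FLK1- FOXF1+ sort 1, where the gene signal was 6.07, this probe set was at 4.79, its lowest value on any array. By it, FLK1- FOXF1+ cells were at -0.34 ± 0.27 (SE) log2 units against FLK1+ FOXF1- cells (limma adjusted p = 0.942), opposite in sign to the gene signal. For Cdh2, probe set 5454848 equalled the gene signal on both double-positive arrays and probe set 4846641 on 3 of the others. Probe set 4846641 was at 5.03 and 4.50 in double-positive and 5.16 and 4.45 in FLK1+ FOXF1- cells, and probe set 5454848 at 5.66 and 5.22 against 5.63 and 4.86. Within each of these probe sets the populations overlapped, so the separation of the double-positive cells in the Cdh2 gene signal was in neither of them.

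For Cdh11, the gene signal on sort 1 of the double-positive and FLK1+ FOXF1- cells was the midpoint of probe sets 4339758 and 5583170. On FLK1+ FOXF1- sort 2 and both FLK1- FOXF1+ arrays it was the midpoint of 5338872 and 5583170. No linked probe sets accounted for double-positive sort 2. Double-positive sort 1 and the FLK1- FOXF1+ arrays thus shared probe set 5583170 but differed in the other probe set of the midpoint. The separation was widest in probe set 4339758. Its signals were 4.23 and 4.18 in double-positive cells, 5.23 and 6.00 in FLK1+ FOXF1- cells, and 7.43 and 7.64 in FLK1- FOXF1+ cells. No arrays of different populations overlapped. By this probe set, double-positive cells were lower than FLK1- FOXF1+ cells by a log2 difference of -3.33 ± 0.31 (SE), or 10.03-fold, with a 95% interval of -4.08 to -2.57 and an adjusted p of 0.0284 in limma over 128950 probe sets. It was the only one of the 27 tests of linked probe sets past the threshold, with 0.159% of all probe sets called in this comparison, 0.000775% between the FLK1+ populations and 0.345% between FLK1- FOXF1+ and FLK1+ FOXF1- cells. Against FLK1+ FOXF1- cells its difference in double-positive cells was -1.41 ± 0.31 (adjusted p = 0.723), and FLK1- FOXF1+ cells were at 1.92 ± 0.31 against FLK1+ FOXF1- cells (adjusted p = 0.110). The call against FLK1- FOXF1+ cells was lost when any 1 double-positive or FLK1- FOXF1+ array was left out, with differences from -3.43 to -3.22. Such fits leave 1 array in a population, and most probe sets lost their calls in them, so the loss was not particular to this probe set. With the sort number as a block, its adjusted p in limma was 0.0528.

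The other probe sets linked to Cdh11 showed smaller differences. Probe set 5583170 was at 5.04 and 4.60 in double-positive cells, 6.08 and 5.13 in FLK1+ FOXF1- cells, and 5.65 and 5.53 in FLK1- FOXF1+ cells. Its double-positive arrays were the lowest, at -0.76 ± 0.37 (SE) log2 units against FLK1- FOXF1+ cells (limma adjusted p = 0.970). Probe set 5338872 was at 6.06 and 5.73 in double-positive cells, 6.08 and 5.81 in FLK1+ FOXF1- cells, and 6.12 and 6.52 in FLK1- FOXF1+ cells, so that the FLK1+ populations overlapped. All 3 probe sets had the double-positive arrays below both FLK1- FOXF1+ arrays, with differences of the means from -3.33 to -0.42 log2 units.

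**Figure D4:**
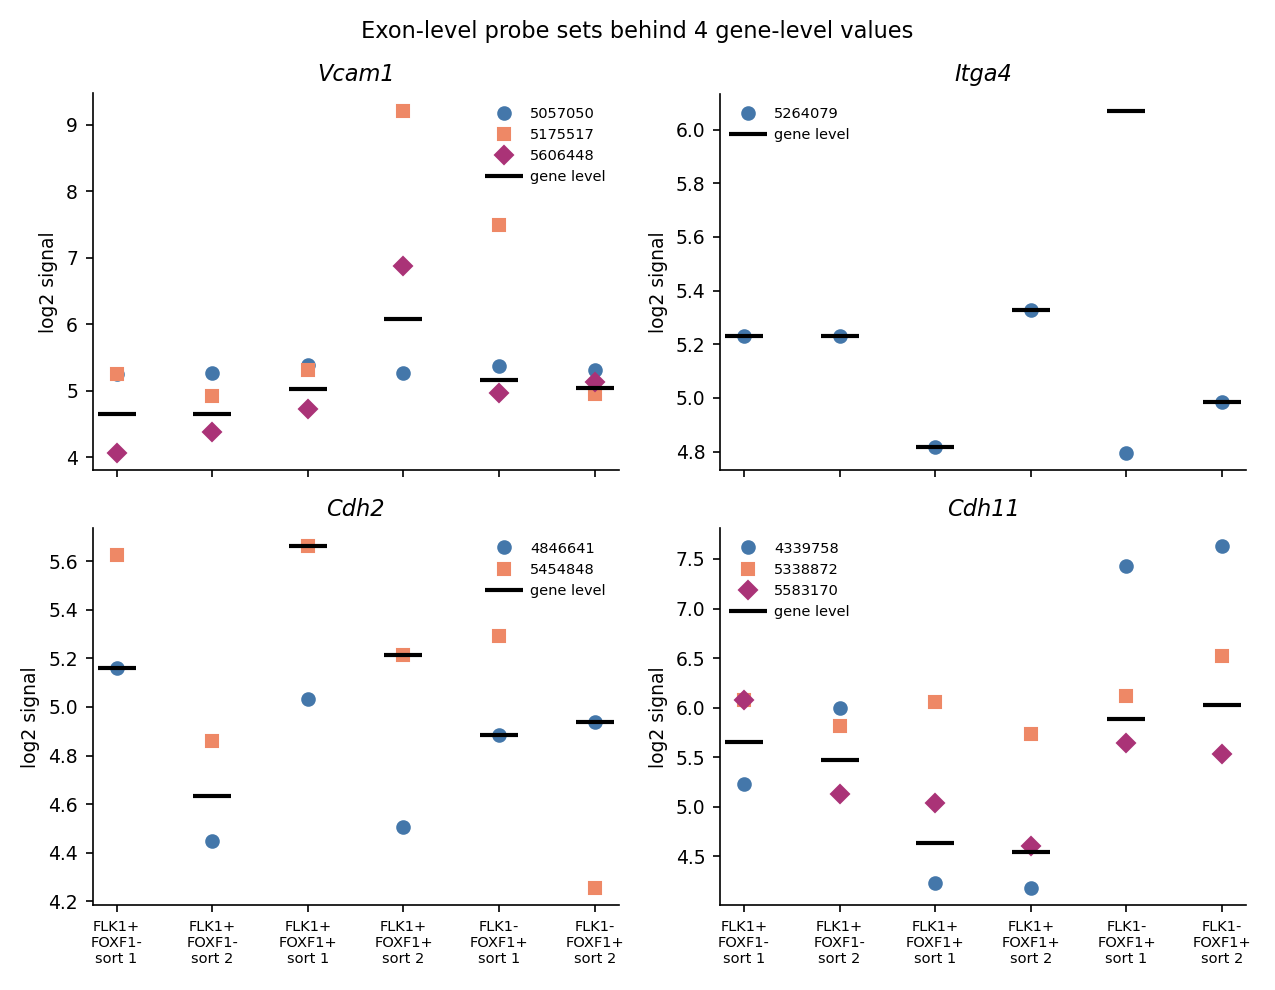
Log2 signal (vertical axis) of the probe sets linked to 4 genes, as coloured symbols numbered by probe set, and of the gene level, as black bars, on each of the 6 arrays (horizontal axis). The vertical scales differ between panels. Vcam1 probe set 5175517 reaches 9.21 and 7.498 on 2 arrays, and Cdh11 probe set 4339758 runs from 4.18 in double-positive to 7.64 in FLK1- FOXF1+ cells.

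Many other rows ran like these genes over the 6 arrays. Of the 5314 other rows that ranged over at least 1 log2 unit, 55 had a Pearson correlation of 0.9 or more with Vcam1, 57 with Itga4, 33 with Cdh2 and 22 with Cdh11. Of 5315 rows, 42 did so with Itga5 and 37 with Fn1. The nearest row was ENSMUSG00000070618 for Vcam1 (r = 0.991 over 6 arrays) and ENSMUSG00000033392 for Itga4 (r = 0.983 over 6 arrays). These rows share the arrays, so a signal that is high on 1 array for any reason raises r, and with so few arrays such values are a description only.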

How the data were processed

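RNA of 50 sorted cells per sample was amplified with the SuperAmp kit, labelled as sense-strand DNA and hybridised to Affymetrix mouse exon arrays, per the labels' protocols. The authors deposited log2 signals at gene level (22400 rows) and at exon level (128950 rows), made with RMA and Affymetrix Power Tools per the submitters' processing notes. RMA is a method that tends to compress large differences. The grouping of probe sets into genes was not stated. The 12 deposited samples are 6 arrays summarised at both levels and counted as 6, with medians of 6.00 to 6.07 at gene level. No detection calls were used. Precision is limited by the number of arrays.

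The deposited log2 values were fitted without further normalization in limma 3.58.1 (R 4.3.3; lmFit and eBayes, population as the only factor, 6 arrays, 3 residual and 4.27 prior degrees of freedom). Tests of the contrasts were two-sided, at a Benjamini-Hochberg adjusted p of 0.05 over all rows of a table. An exact permutation test of 2 against 2 arrays cannot reach that level. Nothing in the labels says that the sorts came from separate embryos, though the design text calls them biological replicates. The p-values rest on the spread between these samples together with the prior over all rows, and may not cover the spread between embryos. Python 3.11.15 and matplotlib 3.10.9 drew the figures.

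The members and lists were chosen with earlier results of these data known. All 6 members are named. For the rows most like a member, 1 ID each was given for Vcam1 and Itga4. The reference table of 49997 genes matched 0 of the Ensembl IDs, so the lists of other integrins, cadherins, adhesion molecules, integrin-linked proteins and transcription factors, and the cell type markers, were not run, and no positions are given. Alternatives were other normalizations, rows, priors and weights, the sort number as a block, and leaving out arrays. The sort number was not taken to pair the arrays by the rule used. Under it, the differences between sorts correlated across rows at 0.137, 0.0975 and 0.0591 between populations, not all over 0.1. All were positive, and weak correlations do not show that the arrays were unpaired.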

Additional observations from a re-analysis of the deposited data

How the results depend on the processing

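The count of the 6 genes past the threshold stayed at 0 in both directions of all 3 comparisons under every alternative run (7 settings and leaving out each of the 6 arrays), and 0 of 219 single values passed. The smallest adjusted p was 0.0593, for Cdh11 between the FOXF1-positive populations after median centring, where its range over alternatives was up to 0.349 and its difference stayed between -1.43 and -1.29. Leaving out the dimmer 50% of rows kept Fn1 alone. Under a replicate block by sort number that Cdh11 difference of -1.36 had an adjusted p of 0.0999, and no call changed. No probe set equalled a gene on all 6 arrays, so that planned fit was not run. The 219 values are not all distinct. Leaving out either array of the population outside a comparison gave the same values as fitting only the populations compared.

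Differences that changed sign when an array was left out were uncalled in every fit. Over these fits, double-positive minus FLK1+ FOXF1- cells ranged from -0.41 to 0.10 for Itga4 and from -0.13 to 0.22 for Itga5, turning without double-positive sort 1 and sort 2. Double-positive minus FLK1- FOXF1+ cells ranged from -0.081 to 0.97 for Vcam1 and from -0.997 to 0.088 for Itga4, turning without double-positive sort 2 and without FLK1- FOXF1+ sort 1. FLK1- FOXF1+ minus FLK1+ FOXF1- cells ranged from -0.24 to 0.84 for Itga4 (turning without FLK1- FOXF1+ sort 1), from -0.22 to 0.13 for Fn1 (without FLK1+ FOXF1- sort 1 or FLK1- FOXF1+ sort 2) and from -0.25 to 0.28 for Cdh2 (without sort 2 of either population). The array left alone in its population was assumed to vary like the others. Of 27 differences by single probe sets, 7 had the opposite sign to the gene signal. In double-positive against FLK1+ FOXF1- cells this was -0.035 for Cdh2 (probe set 4846641). In double-positive against FLK1- FOXF1+ cells it was -0.0205 for Vcam1 (5057050), 0.18 for Itga4 (5264079) and -0.14 for Cdh2 (4846641). In FLK1- FOXF1+ against FLK1+ FOXF1- cells it was -0.34 for Itga4 (5264079), -0.47 for Cdh2 (5454848) and -0.0147 for Cdh11 (5583170). The cause was not tested.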
